A study of Mus musculus with 9 samples.

Results

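The peroxiredoxin and thioredoxin system was followed through 10 genes in mouse cells labelled as pulmonary microvascular endothelial cells. They are the 6 peroxiredoxins Prdx1 to Prdx6, cytosolic thioredoxin (Txn1), cytosolic thioredoxin reductase (Txnrd1), sulfiredoxin (Srxn1) and the thioredoxin-interacting protein (Txnip). They were chosen by name from 56620 gene rows, with the FPKM of a gene summed over its Ensembl transcripts. Assembled loci and transcripts outside the annotation are rows of their own and are counted as genes here. All 10 had a mean of at least 1 FPKM and were among the 13831 genes tested. FPKM divides the fragments of a transcript by its length and by the size of the library, so levels can be compared between genes per length.

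The cells were bought from IMMOCELL and grown for 48 h in 1 of 3 ways, with 3 libraries each. The RA group was held in room air at 21% O2 with no added protein. The HO group was held in hyperoxia at 85% O2. The HO-rWNT5A group was held at 85% O2 with 100 ng/ml of rWNT5A, a preparation of WNT5A, which is a secreted WNT ligand. No genotype, passage number or vehicle is given in the sources used here. No source states that the 3 libraries of a group were separate cultures, and p-values here rest on a spread between libraries that may be technical.

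Peroxiredoxins are thiol enzymes that remove hydrogen peroxide and organic hydroperoxides. Most are returned to the reduced form by thioredoxin, which thioredoxin reductase reduces in turn with electrons from NADPH. Sulfiredoxin repairs peroxiredoxins whose active cysteine has been oxidised too far, and Txnip binds reduced thioredoxin and holds back its activity. Lung endothelium lies beside inhaled gas, and several of these genes are known targets of the transcription factor NRF2, which acts through antioxidant response elements.

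The labelled cell type was checked first. Of 10 pan-endothelial markers, 3 had a mean of at least 1 FPKM, led by Flt1 (37.9) and Emcn (10.1), while Pecam1 (0.093), Cdh5 (0.0543) and Vwf (0.0441) were near 0. Of 8 smooth muscle and pericyte markers, 6 had a mean of at least 5 FPKM, led by Acta2 (1574), Tagln (886) and Des (366). In this list Myh11 (0.236) and Rgs5 (0.757) were low. These levels go against the label, so the cells are named here only as labelled. The summed pan-endothelial markers, lower in all HO-rWNT5A libraries than in any RA library, ranged from 49.4 to 54.9 in RA, from 47.7 to 54.0 in HO and from 38.9 to 48.9 in HO-rWNT5A. Flt1 made up most of this sum and had means of 41.6, 38.3 and 33.8 FPKM in RA, HO and HO-rWNT5A. The means of Emcn (9.66, 10.3 and 10.3) and Kdr (0.852, 1.07 and 1.11) were not lower in HO-rWNT5A than in RA. The summed smooth muscle and pericyte markers ranged from 2945 to 3300 in RA, from 2414 to 3305 in HO and from 2704 to 3112 in HO-rWNT5A. Fibroblast markers had 3 of 6, epithelial markers 2 of 6 and leukocyte markers 0 of 5 at a mean of at least 5 FPKM. The summed fibroblast markers were lower in every HO and HO-rWNT5A library than in any RA library, by little in some. The ranges were 262.6 to 281 in RA, 212 to 262.1 in HO and 189.7 to 261.8 in HO-rWNT5A. Nearly all of this sum was collagen, from Col1a1 (183 FPKM), Col1a2 (45.2) and Col3a1 (16.7). Pdgfra (0.664), Dcn (0.398) and Lum (0.00204) were low. Whether a changing mix of cells has a part in the differences below was not tested, and in bulk RNA fewer cells of a type and less RNA per cell cannot be told apart. A rough estimate of depth was 21300000 to 26500000 fragments per library, and transcripts of structural RNA took 20.1 to 28.1% of the FPKM.

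The upstream sequences of 3 genes known as NRF2 targets are shown because hyperoxia was one of the treatments. They come from RefSeq on GRCm38.p6 and run 5′ to 3′ on the plus strand up to the base before the earliest annotated start. Capitals mark matches to TGACNNNGC or TGAGNNNGC on either strand, which are forms of the antioxidant response element core. The second form was added after the sequence of Srxn1 had been read. The stretches are chr4:116685349-116685543 for Prdx1, chr2:152105274-152105515 for Srxn1 and chr10:82858956-82859178 for the second annotated start of Txnrd1.
Prdx1: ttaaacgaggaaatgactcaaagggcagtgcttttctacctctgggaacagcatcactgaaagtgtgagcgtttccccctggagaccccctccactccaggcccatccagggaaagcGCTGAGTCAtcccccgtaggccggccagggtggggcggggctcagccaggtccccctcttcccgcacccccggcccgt
Srxn1: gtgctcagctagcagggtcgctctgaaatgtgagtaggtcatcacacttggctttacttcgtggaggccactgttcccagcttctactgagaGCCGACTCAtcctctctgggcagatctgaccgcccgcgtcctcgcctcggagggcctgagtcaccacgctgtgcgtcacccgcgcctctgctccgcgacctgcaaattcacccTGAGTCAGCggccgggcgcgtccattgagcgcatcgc
Txnrd1 at the second start: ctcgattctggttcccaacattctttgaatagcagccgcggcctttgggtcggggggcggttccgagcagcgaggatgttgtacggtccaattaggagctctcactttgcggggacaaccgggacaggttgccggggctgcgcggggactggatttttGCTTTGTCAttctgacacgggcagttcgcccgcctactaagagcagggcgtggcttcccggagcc
The Prdx1 stretch holds GCTGAGTCA, a minus-strand match to TGACNNNGC that begins 133 bases before the RefSeq start. The Txnrd1 stretch holds GCTTTGTCA 92 bases before the RefSeq start, also on the minus strand. The Srxn1 stretch holds 2 matches to TGAGNNNGC, GCCGACTCA at 158 bases and TGAGTCAGC at 45 bases before the RefSeq start.

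RefSeq promoters of 300 bases were matched for 9 of the 10 genes, 11 promoters in all. TGACNNNGC was found in 3 of these 11, those of Prdx1, Srxn1 (after its start, outside the printed stretch) and the second Txnrd1 start, and in 12.4% of all 32851 promoters. TGAGNNNGC was found in 2 of the 11, those of Prdx1 (after its start) and Srxn1, and in 17.6% of all promoters. The E-box CACGTG, a form of the core of the element that the MondoA-MLX factors recognise, was found in 1 of the 11, that of Prdx4. It was found in 7.15% of all promoters. No exact CACGTG was found in the promoter of Txnip, a known MondoA target. Imperfect forms of the E-box were not searched, so the search cannot tell whether the element is absent there. The bases before the start of Txnip, which are not printed here, hold repeated copies of CACGAG, which differs from CACGTG. How often such forms occur in other promoters was not counted. Each match is a run of letters in the reference and says nothing of binding in these cells.

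The levels spanned a wide range. Their order by the mean over 9 libraries was Prdx2, Prdx1, Txnrd1, Txn1, Prdx6, Prdx5, Txnip, Prdx3, Prdx4 and Srxn1. Prdx2 lay above Prdx1, Txnip above Prdx3, and Prdx3 above Prdx4 in 9 of 9 libraries, with no overlap of their ranges. Txnrd1 lay above Txn1 in 9 of 9 libraries, also with no overlap. Prdx1 and Txnrd1, Txn1 and Prdx6, and Prdx5 and Txnip kept their order in 8 of 9 libraries and had overlapping ranges. Prdx6 and Prdx5 kept theirs in 5 of 9 libraries and did not differ beyond their spread. Prdx4 was above Srxn1 in 9 of 9 libraries, though their ranges over all libraries overlapped.

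**Figure D1:**
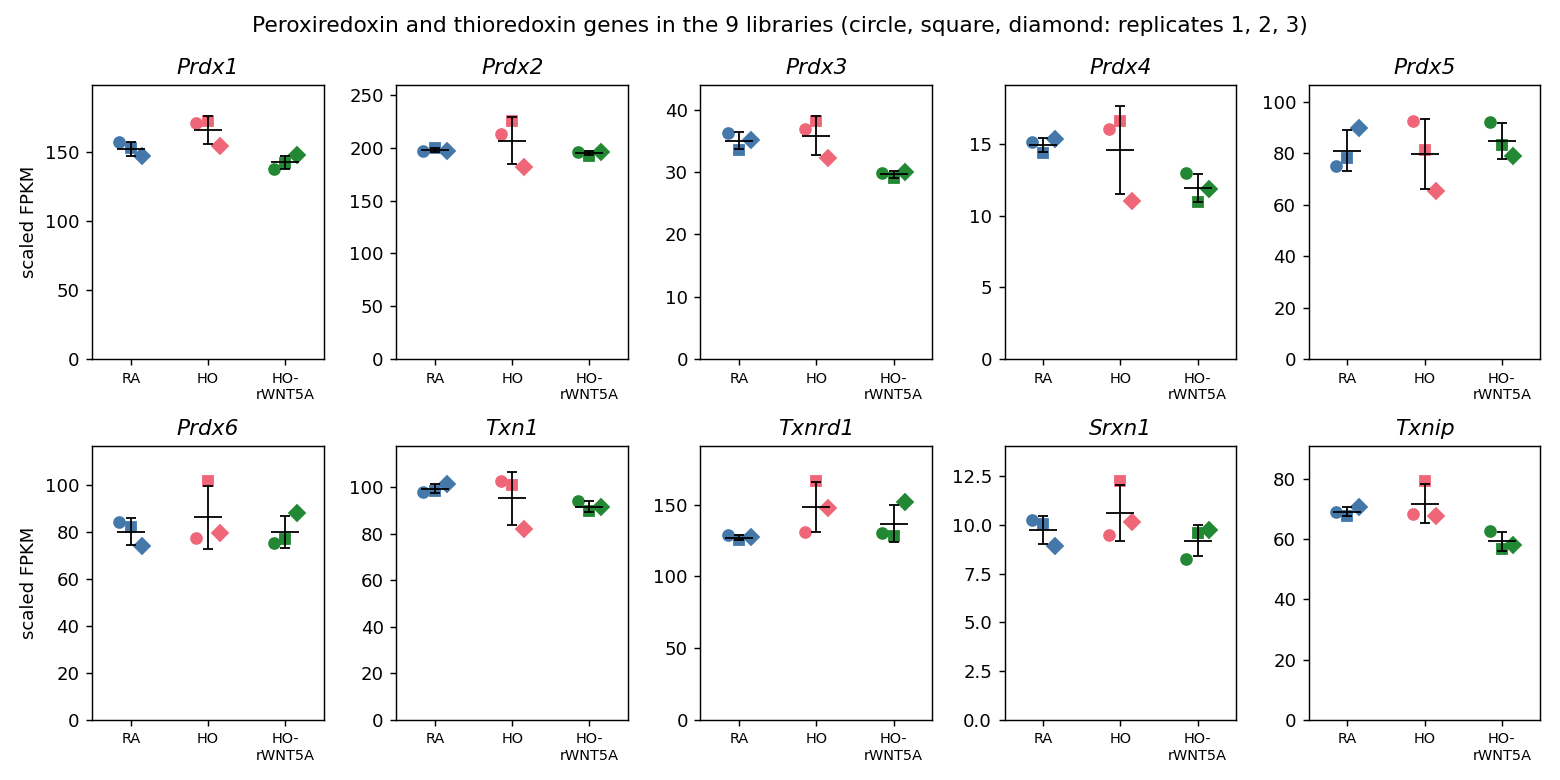
Scaled FPKM (vertical axes, each from 0) of the 10 genes in the RA, HO and HO-rWNT5A groups. Circles, squares and diamonds are replicates 1, 2 and 3, horizontal bars are means and error bars are SD (n = 3); Prdx3 and Txnip are lower in each HO-rWNT5A library than in any other library.

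None of the 10 genes passed the test in any comparison of the 3 groups. In HO against RA, 0 of 10 passed at an adjusted p under 0.05 by limma, where 1.97% of all genes tested did. In HO-rWNT5A against HO, 0 of 10 passed, where 0.00723% of all genes tested did. Between HO-rWNT5A and RA, 0 of 10 passed, where 4.26% of all genes tested did. At an unadjusted p under 0.05, limma found 1, 3 and 3 of the 10 genes in these comparisons, beside 18.1%, 9.2% and 20.9% of all genes. HO is in both of the first comparisons, RA and HO-rWNT5A are each in 2, so the comparisons are not independent of each other.

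The log2 differences of (scaled FPKM + 1) were small. In HO against RA, 7 of 10 were above 0 and the median was 0.05, while 51.1% of all genes tested were below 0. In HO-rWNT5A against HO, 9 of 10 were below 0 and the median was -0.15, while 49.3% of all genes tested were below 0. Between HO-rWNT5A and RA, 8 of 10 were below 0 and the median was -0.09, while 51% of all genes were below 0. The median over all genes tested was 0.00 in size in each comparison. Over the genes of one comparison, the lowest and the highest end of the 95% intervals came from different genes. These ends were -20.7% and 33.6% in HO against RA, and -30.9% and 28.8% in HO-rWNT5A against HO. In HO-rWNT5A against RA they were -33.4% and 25.8%. An adjusted p above the threshold does not show that levels were equal.

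**Figure D2:**
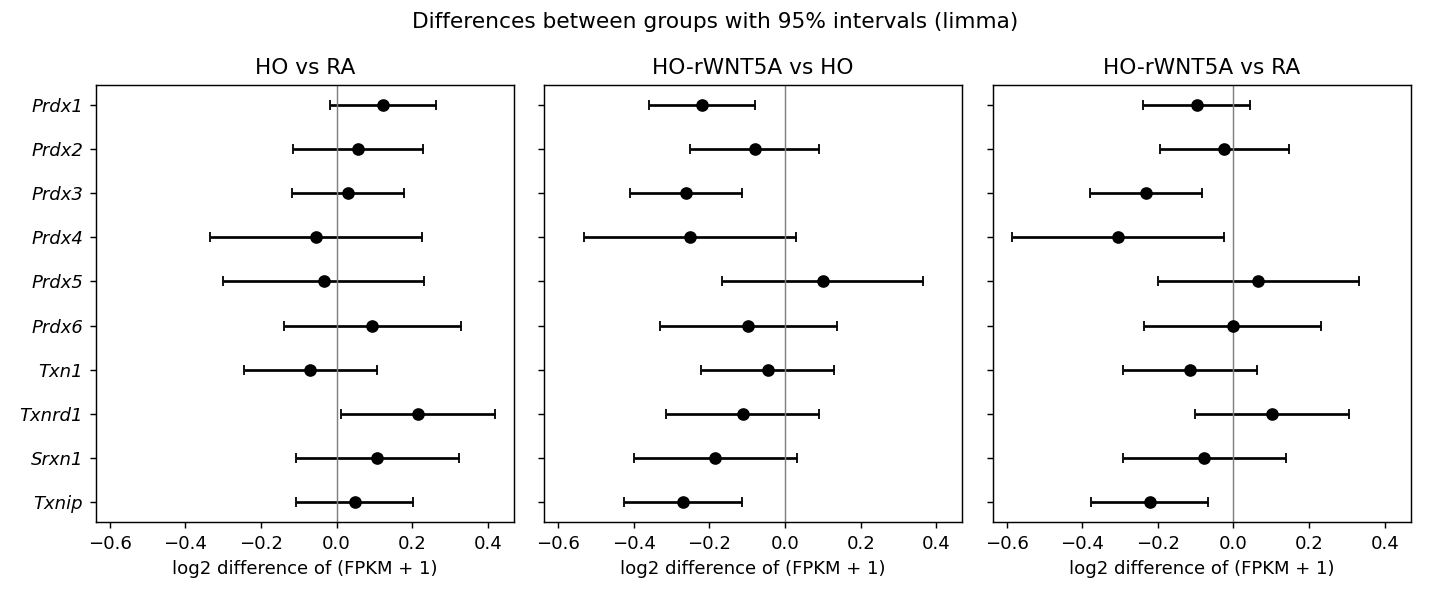
Log2 difference of (scaled FPKM + 1) on the horizontal axis for each gene (rows) in the 3 comparisons (panels), as points with 95% intervals from limma. Most intervals include 0. That of Txnrd1 lies above 0 in HO against RA. Those of Prdx1, Prdx3 and Txnip lie below 0 in HO-rWNT5A against HO, and those of Prdx3, Prdx4 and Txnip in HO-rWNT5A against RA. No gene had an adjusted p under 0.05 by limma.

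The cytosolic pair Prdx1 and Prdx2 had the highest means of the members. Prdx1 (chr4:116685544-116700822, plus strand), a peroxidase of the cytosol and nucleus, had scaled FPKM of 157, 154 and 147 in RA, 171, 173 and 155 in HO, then 138, 143 and 148 in HO-rWNT5A. Replicates 1 and 2 of HO were the highest, HO replicate 3 lay within the RA range, and all HO-rWNT5A libraries were below all HO libraries. The means were 153 ± 5.14, 166 ± 10.02 and 143 ± 5.02 FPKM (SD, n = 3). The log2 difference was 0.12 ± 0.063 (SE) in HO against RA, with an adjusted p of 0.344 by limma. In HO-rWNT5A against HO it was -0.22 ± 0.063, a mean 14.3% lower, with a 95% interval of -0.36 to -0.08, an unadjusted p of 0.00582 and an adjusted p of 0.50 by limma. In HO-rWNT5A against RA it was -0.10, with an adjusted p of 0.422 by limma. One transcript, Prdx1-204, carried 92.5% of the gene's FPKM.

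Prdx2 (chr8:84969587-84974834, plus strand), a cytosolic peroxidase abundant in red cells, had scaled FPKM of 197, 199.8 and 197 in RA, 213, 226 and 182 in HO, then 196, 192 and 196 in HO-rWNT5A. The HO libraries held both the highest and the lowest value, and the other libraries were close together. The means were 198 ± 1.57, 207 ± 22.5 and 195 ± 1.95 FPKM (SD, n = 3). The log2 differences were 0.06 in HO against RA, -0.08 in HO-rWNT5A against HO and -0.02 in HO-rWNT5A against RA, with adjusted p of 0.739, 0.784 and 0.898 by limma. Leaving out HO replicate 2 gave -0.0092 for the first and -0.015 for the second, and leaving out HO replicate 3 gave 0.15 and -0.17. Prdx2 overlaps Junb and Rnaseh2a on the opposite strand, and the strand setting of the quantification is not given in the sources used here. Junb, a transcription factor of the AP-1 family, had 60.5 ± 3.67, 78.0 ± 9.62 and 78.6 ± 6.55 FPKM (SD, n = 3) in RA, HO and HO-rWNT5A. Its part in the Prdx2 values was not tested.

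The peroxiredoxins of organelles were less abundant than the cytosolic pair. Prdx3 (chr19:60864051-60874556, minus strand), the mitochondrial peroxidase, had scaled FPKM of 36.3, 33.5 and 35.1 in RA, 36.9, 38.2 and 32.2 in HO, then 29.8, 29.0 and 30.1 in HO-rWNT5A. The HO-rWNT5A libraries were the lowest of all and overlapped neither other group. The means were 35.0 ± 1.37, 35.8 ± 3.13 and 29.6 ± 0.548 FPKM (SD, n = 3). The log2 difference was 0.03 in HO against RA, with an adjusted p of 0.853 by limma. It was -0.26 ± 0.067 in HO-rWNT5A against HO, a mean 17.2% lower, with a 95% interval of -0.41 to -0.11, an unadjusted p of 0.00277 and an adjusted p of 0.492 by limma. It was -0.23 ± 0.067 in HO-rWNT5A against RA, a mean 15.3% lower, with a 95% interval of -0.38 to -0.08, an unadjusted p of 0.00575 and an adjusted p of 0.0791 by limma. The last call depended on the settings. Prdx3 passed there with FPKM as deposited (-0.30, adjusted p of 0.0203 by limma), with quantile normalization (adjusted p of 0.037), with the 2 groups fitted alone (adjusted p of 0.0199) and with protein-coding transcripts alone (adjusted p of 0.0388).

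Prdx4 (chrX:155323918-155340754, minus strand), the peroxidase of the endoplasmic reticulum, had scaled FPKM of 15.2, 14.4 and 15.3 in RA, 16.1, 16.7 and 11.1 in HO, then 12.97, 11.003 and 11.9 in HO-rWNT5A. HO replicate 3 lay among the HO-rWNT5A libraries, and all HO-rWNT5A libraries were below all RA libraries. The means were 14.98 ± 0.488, 14.6 ± 3.07 and 11.9 ± 0.984 FPKM (SD, n = 3). The log2 difference was -0.05 ± 0.126 in HO against RA, and without HO replicate 3 it was 0.12. It was -0.25 ± 0.126 in HO-rWNT5A against HO (95% interval -0.53 to 0.03, adjusted p of 0.574 by limma), but -0.43 (adjusted p of 0.0574) without HO replicate 3 and -0.15 (adjusted p of 0.848) without HO replicate 2. It was -0.31 ± 0.126 in HO-rWNT5A against RA (95% interval -0.59 to -0.03), a mean 20.2% lower, with an unadjusted p of 0.0356 and an adjusted p of 0.201 by limma. With the 2 groups fitted alone, the last adjusted p was 0.0252 by limma. Roughly 240 to 410 fragments per library lay behind these values, the fewest of the 10 genes.

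Prdx5 and Prdx6 showed no order of the groups. Prdx5 (chr19:6906697-6910106, minus strand), found in mitochondria, peroxisomes and cytosol, had scaled FPKM of 75.1, 78.0 and 89.9 in RA, 92.6, 81.2 and 65.2 in HO, then 92.2, 83.1 and 78.9 in HO-rWNT5A. All 3 groups overlapped, and the HO group spanned the whole range. The means were 81.0 ± 7.87, 79.7 ± 13.8 and 84.7 ± 6.82 FPKM (SD, n = 3). The log2 differences were -0.03, 0.10 and 0.07 in HO against RA, HO-rWNT5A against HO and HO-rWNT5A against RA, with adjusted p of 0.91, 0.834 and 0.80 by limma. Leaving out HO replicate 3 gave 0.10 for the first and -0.036 for the second, and leaving out HO-rWNT5A replicate 1 gave 0.0035 for the last. Prdx5 overlaps Trmt112, whose mean was 15.8 FPKM.

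Prdx6 (chr1:161240112-161251219, minus strand), which also has a phospholipase activity known from lung surfactant turnover, had scaled FPKM of 84.5, 82.2 and 73.9 in RA, 77.4, 101.6 and 79.7 in HO, then 75.3, 77.1 and 88.05 in HO-rWNT5A. HO replicate 2 was the highest, and the groups overlapped. The means were 80.2 ± 5.59, 86.2 ± 13.3 and 80.1 ± 6.92 FPKM (SD, n = 3). The log2 differences were 0.09, -0.10 and -0.00 in the same order of comparisons, with adjusted p of 0.679, 0.812 and 0.994 by limma. Without HO replicate 2 the first was -0.028 and the second 0.025. Its related gene Prdx6b and the copy Prdx6-ps2 were listed at 0 in all libraries.

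Txn1 and Txnrd1 are the cytosolic part of the system that recycles most oxidised peroxiredoxins. Txn1 (chr4:57943373-57956411, minus strand), the electron donor, had scaled FPKM of 98.1, 98.6 and 101.4 in RA, 102, 100.8 and 82.1 in HO, then 94.0, 89.7 and 91.3 in HO-rWNT5A. All HO-rWNT5A libraries were below all RA libraries, and HO replicate 3 was the lowest of all. The means were 99.4 ± 1.80, 95.1 ± 11.3 and 91.7 ± 2.19 FPKM (SD, n = 3). The log2 differences were -0.07, -0.05 and -0.12 in the same order of comparisons, with adjusted p of 0.692, 0.891 and 0.455 by limma. Without HO replicate 3 the first was 0.032 and the second -0.15. The pseudogene copy Txn-ps1 had a mean of 0.114 FPKM.

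Txnrd1 (chr10:82833951-82897712, plus strand), a selenoprotein, was the member with the largest difference in HO against RA. Its scaled FPKM was 129, 125 and 127 in RA, 131, 166 and 147 in HO, then 130, 128 and 152 in HO-rWNT5A. All HO libraries were above all RA libraries, HO replicate 1 by little, and HO-rWNT5A overlapped both. The means were 127 ± 1.73, 148 ± 17.6 and 137 ± 13.0 FPKM (SD, n = 3). The log2 difference in HO against RA was 0.21 ± 0.091, a mean 16.7% higher, with a 95% interval of 0.01 to 0.42, an unadjusted p of 0.0402 and an adjusted p of 0.251 by limma. Leaving out HO replicate 2 gave 0.13 and leaving out HO replicate 1 gave 0.30. It was -0.11 in HO-rWNT5A against HO and 0.10 in HO-rWNT5A against RA, with adjusted p of 0.737 and 0.577 by limma. The former was -0.027 without HO replicate 2 and -0.20 without HO replicate 1, and the latter was 0.026 without HO-rWNT5A replicate 3. Eid3, which lies within Txnrd1, had a mean of 5.66 FPKM.

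The transcripts of Txnrd1 were split by annotated start, since different starts can give proteins with different amino ends. The upstream stretches of the outer starts are printed for comparison with that of the second start above, chr10:82833701-82833950 for the first and chr10:82860091-82860300 for the third, from RefSeq on GRCm38.p6, plus strand. Neither 300-base promoter holds a match to the searched motifs, so no letters are in capitals.
Txnrd1 at the first start: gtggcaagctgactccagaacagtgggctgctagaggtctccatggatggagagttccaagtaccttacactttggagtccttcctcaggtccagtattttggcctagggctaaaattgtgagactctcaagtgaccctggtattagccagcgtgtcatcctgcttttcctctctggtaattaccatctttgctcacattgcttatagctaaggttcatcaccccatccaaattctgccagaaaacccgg
Txnrd1 at the third start: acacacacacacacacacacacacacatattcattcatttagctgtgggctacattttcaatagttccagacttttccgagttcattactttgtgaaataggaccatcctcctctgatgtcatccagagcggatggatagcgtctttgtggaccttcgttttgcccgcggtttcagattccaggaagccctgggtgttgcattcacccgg
The promoter at the second start has a GC content of 61.3%, against 51.3% at the first and 48% at the third.

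The protein-coding transcript from the first start, Txnrd1-205, had scaled FPKM of 16.2, 10.5 and 18.1 in RA, 11.8, 34.4 and 20.4 in HO, then 18.3, 12.4 and 31.7 in HO-rWNT5A. The 3 transcripts from the second start summed to 74.4, 41.8 and 71.5 in RA, 47.1, 86.8 and 51.9 in HO, then 58.5, 42.4 and 69.2 in HO-rWNT5A. The transcript from the third start, Txnrd1-206, had 21.7, 55.9 and 19.8 in RA, 57.3, 26.4 and 53.3 in HO, then 37.7, 55.5 and 27.8 in HO-rWNT5A. Libraries with a high value at the third start had a low value at the second in every group. In RA the SD was 18.0 FPKM at the second start and 20.3 at the third, against 2.12 for the sum of all protein-coding transcripts. In HO these SDs were 21.6 and 16.8 against 16.1, and in HO-rWNT5A they were 13.5 and 14.04 against 9.67. The second start took 38.4 to 66.2% of the protein-coding FPKM and the third 17.9 to 51.6%. The sum of all protein-coding transcripts was 112, 108 and 109 in RA, 116, 147.6 and 126 in HO, then 114, 110.4 and 129 in HO-rWNT5A. These transcripts share most of their exons, and the assignment of a fragment from a shared exon to 1 of them is uncertain, and so is the split between starts.

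**Figure D3:**
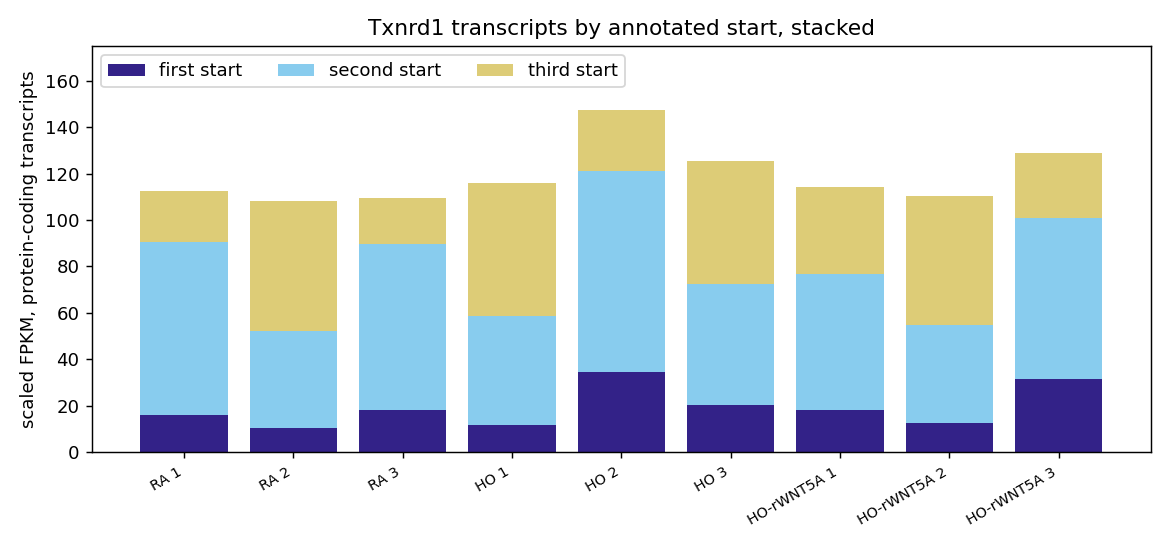
Stacked scaled FPKM (vertical axis, from 0) of the protein-coding Txnrd1 transcripts by annotated start in each of the 9 libraries (horizontal axis). The third start ranges from 19.8 to 57.3 FPKM and its high libraries are found in all 3 groups, while the sum ranges from 108 to 147.6 FPKM.

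Srxn1 (chr2:152105516-152111376, plus strand), the repair enzyme, was the least abundant member. Its scaled FPKM was 10.2, 10.1 and 8.93 in RA, 9.48, 12.2 and 10.2 in HO, then 8.26, 9.57 and 9.76 in HO-rWNT5A. HO replicate 2 was the highest and all groups overlapped. The means were 9.75 ± 0.714, 10.6 ± 1.43 and 9.19 ± 0.814 FPKM (SD, n = 3). The log2 differences were 0.11, -0.18 and -0.08 in the same order of comparisons, with adjusted p of 0.595, 0.577 and 0.704 by limma. Without HO replicate 2 the first was 0.0108 and the second -0.088, and without HO-rWNT5A replicate 1 the last was -0.0092. Roughly 510 to 780 fragments per library lay behind these values. Of the 3 genes whose upstream sequences were shown first, Srxn1 and Prdx1 had overlapping RA and HO libraries, and Txnrd1 did not.

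Txnip (chr3:96557957-96561883, plus strand), the inhibitor of thioredoxin and a brake on glucose uptake, had scaled FPKM of 69.0, 67.7 and 70.8 in RA, 68.3, 79.2 and 67.7 in HO, then 62.8, 56.7 and 58.2 in HO-rWNT5A. All HO-rWNT5A libraries were below all others, and RA and HO overlapped. The means were 69.2 ± 1.56, 71.7 ± 6.46 and 59.2 ± 3.16 FPKM (SD, n = 3). The log2 difference was 0.05 in HO against RA, with an adjusted p of 0.755 by limma. It was -0.27 ± 0.070 in HO-rWNT5A against HO, a mean 17.4% lower, with a 95% interval of -0.42 to -0.11, an unadjusted p of 0.00297 and an adjusted p of 0.492 by limma. It was -0.22 ± 0.070 in HO-rWNT5A against RA, a mean 14.4% lower, with a 95% interval of -0.38 to -0.07, an unadjusted p of 0.00959 and an adjusted p of 0.101 by limma. In the last comparison Txnip passed with FPKM as deposited (-0.29, adjusted p of 0.0222 by limma), with quantile normalization (adjusted p of 0.0476) and with the 2 groups fitted alone (adjusted p of 0.0287). Txnip-201 and Txnip-202 each carried about the same share, 48.4% and 48.2%. The antisense gene Gm15441 had a mean of 0.247 FPKM.

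Some genes had groups that did not overlap. In HO against RA this held for 1 of 10 genes, Txnrd1, upward, where 11.3% of all genes were higher without overlap and 10.1% lower. In HO-rWNT5A against HO it held for Prdx1, Prdx3 and Txnip, 3 of 10, all lower, where 6.7% of all genes were lower without overlap and 6.27% higher. In HO-rWNT5A against RA it held for Prdx2, Prdx3, Prdx4, Txn1 and Txnip, 5 of 10, all lower, where 16.5% of all genes were lower and 16.3% higher. With 3 libraries on each side, the smallest two-sided p of an exact permutation test of 1 gene is 0.1.

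The HO libraries differed among themselves across the members. HO replicate 3 was the lowest of its group in 7 of 10 genes and HO replicate 2 the highest in 8 of 10. The same order was not counted over all genes tested, so these counts do not set the members apart. HO replicate 3 also had 20.1% of its FPKM in structural RNA, against 27.4% and 26.5% in replicates 1 and 2, and 7.09% in retained-intron transcripts, against 5.49% and 5.26%. The part of these values in the member differences was not tested. Without HO replicate 3, limma called 707 genes in HO against RA in place of 273 and 27 in HO-rWNT5A against HO in place of 1, and still 0 of the 10 members in each.

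**Figure D4:**
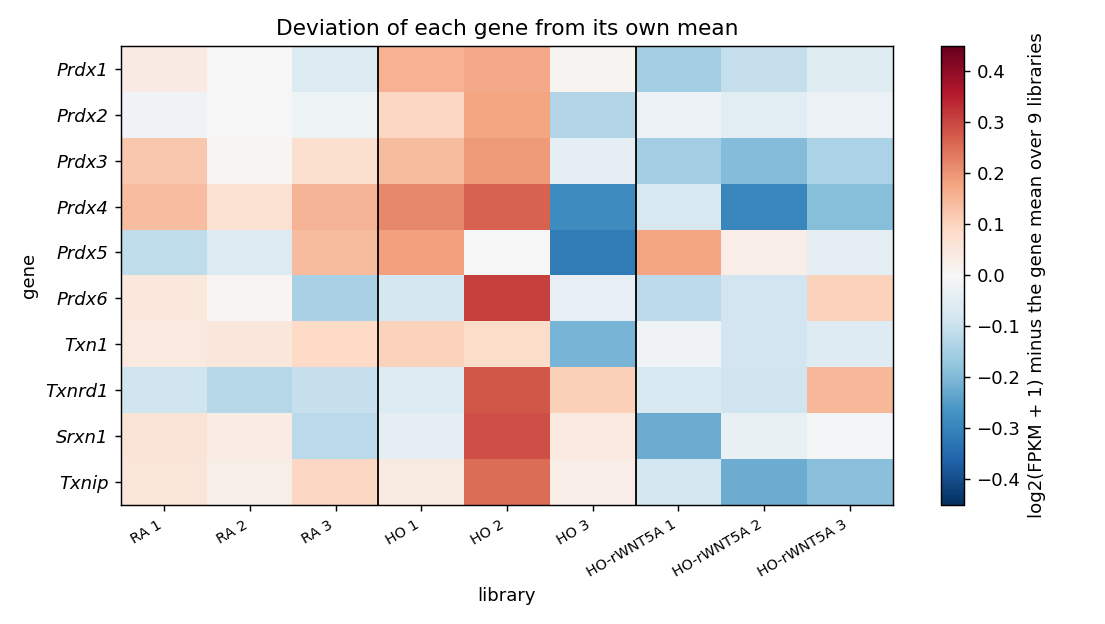
Deviation of log2(scaled FPKM + 1) from each gene's mean over the 9 libraries (colour), with genes in rows and libraries in columns. HO replicate 2 is mostly red (above the mean), HO replicate 3 is blue for Prdx4, Prdx5 and Txn1, and the HO-rWNT5A libraries are blue for Prdx3 and Txnip.

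Single transcripts gave no call either. Of the 50 annotated transcripts of the 10 genes, 35 had a mean of at least 1 FPKM, and limma called 0 of 35 in each comparison. The background was 0.0153%, 0.0115% and 0.0382% of 26158 transcripts in HO against RA, HO-rWNT5A against HO and HO-rWNT5A against RA. At an unadjusted p under 0.05, limma found 3, 4 and 6 of the 35, beside 11.2%, 6.78% and 11.1% of all transcripts. Prdx3 and Txn1 each had 1 annotated transcript, and Prdx4-201 and Srxn1-201 carried 96.1% and 99.5% of their genes. Prdx2 was the most divided after Txnrd1, with 42.4% in Prdx2-201.

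Around these genes, 58 others of the pathway were listed by function and 56 could be tested. Ero1lb (0.635 FPKM) and Mlxipl (0.0636 FPKM) fell under the minimum. In HO against RA 0 rose and 2 fell, in HO-rWNT5A against HO 0 rose and 0 fell, and in HO-rWNT5A against RA 0 rose and 2 fell. Of all genes tested, 1.21% rose and 0.766% fell in HO against RA, and 2.39% rose and 1.87% fell in HO-rWNT5A against RA. Both that fell were protein disulfide isomerases of the endoplasmic reticulum, which form and rearrange disulfide bonds in secreted proteins. All other tested genes of the lists stayed above the threshold in each comparison.

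The level of Pdia6 was 54.8 ± 4.09, 42.4 ± 4.53 and 41.9 ± 0.858 FPKM (SD, n = 3) in RA, HO and HO-rWNT5A. It fell by 0.36 on the log2 scale in HO against RA (SE 0.079, adjusted p of 0.0489 by limma) and by 0.38 in HO-rWNT5A against RA (adjusted p of 0.0301). Pdia4 had 32.1 ± 0.85, 25.4 ± 2.63 and 25.2 ± 0.762 FPKM and fell by 0.33 (SE 0.07, adjusted p of 0.0478 by limma) and by 0.34 (adjusted p of 0.0298). Both calls against RA ended when any 1 RA library was left out or low genes were kept, and Pdia4 and Pdia6 passed in 9 and 10 of 21 alternatives in HO against RA. There the call of Pdia4 also ended without HO replicate 1 or 3, and that of Pdia6 without HO replicate 2 or 3. In HO-rWNT5A against RA each passed in 12 of 20 alternatives, and in none that left out a library. Of the 8 tested genes of oxidative folding, the median log2 difference was -0.08 in HO against RA, -0.05 in HO-rWNT5A against HO and -0.13 in HO-rWNT5A against RA. The most abundant of the list were P4hb (124 FPKM) and Pdia3 (113 FPKM), which did not pass. Prdx4 acts in the same compartment, and its values were given above. The summed fibroblast markers, nearly all collagen, were also lower in all HO and HO-rWNT5A libraries than in RA, by little in some. Their part in these differences was not tested.

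The remaining lists had no call. Among 18 other thioredoxin-fold genes, led by Txndc5 (61.9 FPKM) and mitochondrial thioredoxin Txn2 (39.1 FPKM), the medians were 0.04, -0.08 and -0.08 in the same order of comparisons. Among 4 glutaredoxins, which use glutathione, led by Glrx3 (91.2 FPKM) and Glrx (16.6 FPKM), they were 0.10, -0.10 and 0.04. Among 4 methionine sulfoxide reductases, which need thioredoxin, led by Msrb3 (40.1 FPKM) and Msrb1 (24.3 FPKM), they were -0.02, 0.02 and -0.01. No gene of these lists passed in any comparison.

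Among 3 ribonucleotide reductase subunits, led by Rrm2 (27.4 FPKM) and Rrm1 (18.9 FPKM), the medians were -0.06, -0.09 and -0.16. Among 3 sestrins, stress-induced regulators of growth signalling, led by Sesn2 (22.2 FPKM) and Sesn3 (11.7 FPKM), they were 0.03, 0.03 and -0.03. Among 6 tested genes of the alpha-arrestins, relatives of Txnip, and their MondoA-MLX regulators, led by Arrdc1 (9.98 FPKM) and Mlxip (9.28 FPKM), they were -0.05, 0.02 and -0.02. Ribonucleotide reductase takes electrons from thioredoxin to make deoxyribonucleotides. Among 6 genes that insert selenocysteine, the residue Txnrd1 needs, led by Sephs2 (11.7 FPKM) and Pstk (8.18 FPKM), they were -0.02, -0.12 and -0.03.

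The 3 members with the widest range of log2 values were set against all other protein-coding genes tested, 11089 in number. The measure was the root mean square difference of the log2 deviations from the gene mean over 9 libraries, which share depth and scaling. The genes nearest to Prdx4 were Gcat (0.0623), Tuba1a (0.0627) and Bok (0.0628), against a deviation of 0.203 for Prdx4 itself. Those nearest to Srxn1 were Lynx1 (0.0419), Ttyh2 (0.0458) and Tgfbr2 (0.0481), against 0.133. Those nearest to Prdx5 were Rps6 (0.0253), Nol12 (0.0514) and S100a6 (0.0551), against 0.151. Like Prdx5, Rps6 was lowest in HO replicate 3 (215 FPKM) and highest in HO replicate 1 (312 FPKM).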

How the data were processed

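Total RNA libraries of 9 samples were sequenced as 150-base pairs, per the labels' protocols. Reads were trimmed with Skewer 0.2.2, aligned with STAR 2.5.3a and assembled with StringTie 1.3.1, and transcripts were compared with Ensembl by gffcompare 0.9.9c, per the labels' protocols. The submitters' processing notes list hg38 and mm10; the identifiers are mouse. The authors deposited FPKM per transcript; the program that computed it, and its strand setting, are not given in the sources used here.

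Of the 143043 transcripts, 142351 had Ensembl identifiers, and the 99.4% of these found in GENCODE M21 were summed to genes. The others, and the 692 assembled transcripts, stayed as rows of their own. Libraries were scaled by the median ratio over 13809 genes. A gene was tested if its mean reached 1 FPKM. The test was limma 3.58.1 (R 4.3.3) on the scaled values as log2(FPKM + 1), in 1 fit over all 9 libraries using a variance trend. P-values were two-sided and adjusted over 13831 genes by Benjamini-Hochberg, with a threshold of 0.05. The pseudocount of 1 understates fold changes of low genes. The columns hold no counts, so depth is a rough estimate from the smallest values and no count test was run. On simulated data limma called 80, 77 and 72 of 100 genes changed 1.5-fold, in HO against RA, HO-rWNT5A against HO and HO-rWNT5A against RA, and 96, 94 and 96 of 100 changed 2-fold. It also called 10, 9 and 7 unchanged genes. The noise was drawn for each gene alone, so shifts that genes of a library share were not simulated. The member differences were smaller than 1.5-fold, and the counts do not give the power for them.

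Members, pathway lists and markers were chosen with earlier results of these data known. Named were all members, list genes past the threshold, the 2 most abundant genes of each list, and the 3 genes nearest in pattern to each of the 3 members with the widest range. One list is not reported here. Alternatives were other pseudocounts, filters, scalings and variance settings, the compared groups alone, protein-coding transcripts alone, a replicate block and each library left out. Library factors from all genes above 0, and leaving out HO replicates 2 and 3 together, were added after seeing the data. Plots used Python 3.11.15 and matplotlib 3.10.9.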

Additional observations from a re-analysis of the deposited data

How the results depend on the processing

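No member and no member transcript passed in HO against RA or in HO-rWNT5A against HO under any alternative run. In HO-rWNT5A against RA the main fit called 0 members and 589 of all 13831 genes, but some settings called members, all of them lower. The count was 2 with FPKM as deposited, where 824 of all 13831 genes passed. It was 2 with quantile normalization, where 715 passed, and 3 with the 2 compared groups alone, where 1330 passed. With protein-coding transcripts alone it was 1, where 604 of 10708 genes passed. The cause was not tested. FPKM as deposited moved the median of all genes to -0.06 in HO against RA and in HO-rWNT5A against RA.

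Over all genes, leaving out 1 library gave 3 (without RA replicate 2) to 707 (without HO replicate 3) calls in HO against RA, 1 to 27 (without HO replicate 3) in HO-rWNT5A against HO, and 124 (without RA replicate 1) to 209 in HO-rWNT5A against RA, with 0 members throughout. The other counts that moved most, in the order HO against RA, HO-rWNT5A against HO and HO-rWNT5A against RA, were 69, 0 and 222 with no filter, 56, 1 and 257 at equal total FPKM, and 67, 3 and 1330 with the 2 groups alone. With no filter more genes were tested (33928). HO against RA without HO replicates 2 and 3 together, which leaves 1 HO library assumed to vary like the other groups, gave 23. FPKM as deposited changed the split in HO against RA from 167 higher and 106 lower to 103 and 179, and in HO-rWNT5A against RA from 331 and 258 to 209 and 615.

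Whether the replicate numbers pair the libraries could not be settled with 3 libraries a group. Over 9 same-numbered pairs the correlation of deviations ran from -0.118 to 0.28 and exceeded 0.1 in 3. Over pairs with different numbers it ran from -0.252 to 0.172. The highest value of all was that of HO replicate 1 with HO-rWNT5A replicate 1. With a replicate block limma called 0 members in each comparison and 116, 2 and 393 of all genes.

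Small log2 differences changed sign. In HO against RA, FPKM as deposited gave -0.0053 for Prdx2, -0.032 for Prdx3 and -0.013 for Txnip, equal total FPKM gave -0.0032 for Prdx3, and protein-coding transcripts alone gave -0.00037 for Prdx3. Leaving out 1 library gave -0.0092 to 0.15 for Prdx2, -0.019 to 0.10 for Prdx3, -0.15 to 0.12 for Prdx4, -0.15 to 0.10 for Prdx5, -0.028 to 0.17 for Prdx6, -0.13 to 0.032 for Txn1 and -0.024 to 0.087 for Txnip. The sign changed without HO replicate 2 for Prdx2, Prdx3, Prdx6 and Txnip, without HO replicate 3 for Prdx4, Prdx5 and Txn1, and without RA replicate 3 for Prdx5. Leaving out HO replicates 2 and 3 together gave 0.097 for Prdx4, 0.20 for Prdx5, -0.048 for Prdx6, 0.044 for Txn1, -0.034 for Srxn1 and -0.019 for Txnip.

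In HO-rWNT5A against HO, leaving out 1 library gave -0.036 (HO replicate 3) to 0.21 for Prdx5, -0.17 to 0.025 (HO replicate 2) for Prdx6 and -0.15 to 0.0104 (HO replicate 1) for Txn1. HO replicates 2 and 3 left out together gave -0.13 for Prdx5, 0.046 for Prdx6 and 0.058 for Txnrd1. In HO-rWNT5A against RA, Prdx5 was -0.0027 with FPKM as deposited, and Prdx6 was 0.013 at equal protein-coding total, 0.0022 with quantile normalization and -0.071 to 0.041 with 1 library left out. Prdx4 and Srxn1 had the fewest fragments of the members by the rough estimate, and the part of depth in these differences was not tested.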

Other observations

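Arrdc3, an alpha-arrestin related to Txnip, was singled out after its values were seen. It had 4.48 ± 0.215, 5.68 ± 0.245 and 4.42 ± 0.172 FPKM (SD, n = 3) in RA, HO and HO-rWNT5A, and all HO libraries were above all others. It did not pass, with an adjusted p by limma of 0.0572 in HO against RA and 0.43 in HO-rWNT5A against HO. Its relative Arrdc4, also named after its values were seen, had 6.58 ± 0.611, 6.28 ± 0.675 and 5.23 ± 0.462 FPKM. All HO-rWNT5A libraries of Arrdc4 were below all others, as for Txnip. Arrdc4 did not pass either, with an adjusted p by limma of 0.518 in HO-rWNT5A against HO and 0.114 in HO-rWNT5A against RA. The groups of Arrdc1 and Arrdc2 overlapped in each comparison.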
